A study of Mus musculus with 4 samples.

Results

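The comparison described here sets c-Kit+ against c-Kit- leukaemia cells sorted at the same, middle gate of a fluorescent reporter. Its members are 2 of the 4 arrays of the study, the samples labelled c-Kit+NS-GFPmiddle and c-Kit-NS-GFPmiddle, here called c-Kit+ middle and c-Kit- middle. The labels define them, and the comparison was chosen with earlier results of these data known. All fractions were sorted from the marrow of C57BL/6 animals that carried an acute myeloid leukaemia made by introducing HoxA9 and Meis1 into donor marrow. That donor marrow was transgenic for NS-GFP, in which part of the nucleostemin (NS) promoter drives green fluorescent protein, so every fraction shares the oncogenes, the transgene and the background. The other arrays, the samples labelled c-Kit-NS-GFPlow and c-Kit+NS-GFPhigh (c-Kit- low and c-Kit+ high), were used only to place the genes of the middle gate. The sources used here do not give the number of mice or leukaemia clones behind a fraction, and each fraction was measured on 1 array. There is thus no p-value or standard deviation between samples, and the differences below are those of 2 arrays, not of c-Kit status in general.

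c-Kit is the receptor tyrosine kinase for stem cell factor. In the marrow it is carried by stem and progenitor cells and by mast cells, and most myeloid cells lose it as they mature into granulocytes or monocytes. Granulocytic maturation runs from progenitors that fill primary granules with myeloperoxidase and elastase to cells that make gelatinase and lactoferrin, whereas monocytic maturation brings scavenger, Fc and Toll-like receptors. HoxA9 and Meis1 together hold myeloid progenitors in an immature, self-renewing state, and such leukaemias still contain cells at several degrees of maturation.

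Each array measured biotin-labelled RNA on 45101 probe sets, and 18193 genes were represented by their brightest probe set. Signals are linear intensities after quantile normalization over all 4 arrays. The floor, below which signals were set to 15.3, is their 50th percentile. Signals printed below 15.3 are values before flooring, whereas folds use the floor. On the array of c-Kit- middle or c-Kit+ middle, or on both, 11080 genes lay above it, and 9646 did so on both. The remaining 667 genes at the floor in c-Kit- middle alone and 767 at the floor in c-Kit+ middle alone have only a lower bound on their fold, written "at least". The ratio of the 3' to the 5' signal of the Actb control, which rises as RNA is degraded, was 3.28 in the c-Kit- and 3.98 in the c-Kit+ middle fraction. For the Gapdh control it was 3.91 and 3.10. Levels are compared between arrays for the same probe set, and never between genes. Where a gene is given 2 signals, the c-Kit- middle one comes first and the c-Kit+ middle one second, and 4 signals follow the order of the sort, that is c-Kit- low, then both middle fractions in that order, then c-Kit+ high.

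Of the 11080 genes, 396 (3.57%) had a c-Kit+ signal at least 2-fold above the c-Kit- one and 586 (5.29%) a signal at least 2-fold below it, 8.86% in all, and 91.1% lay within 2-fold. The larger differences were mostly on the lower side. At 4-fold or more, 33 genes were higher and 129 lower, and at 8-fold or more 6 were higher and 48 lower. Of the genes past 2-fold, 60 of the higher and 121 of the lower ones rest on a bound. Under the authors' own scaling of the arrays the split turned, with 588 genes higher and 450 lower. That scaling moved the median log2 ratio of all genes from 0.02 to 0.16, so a difference of that size has no settled direction here.

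**Figure D1:**
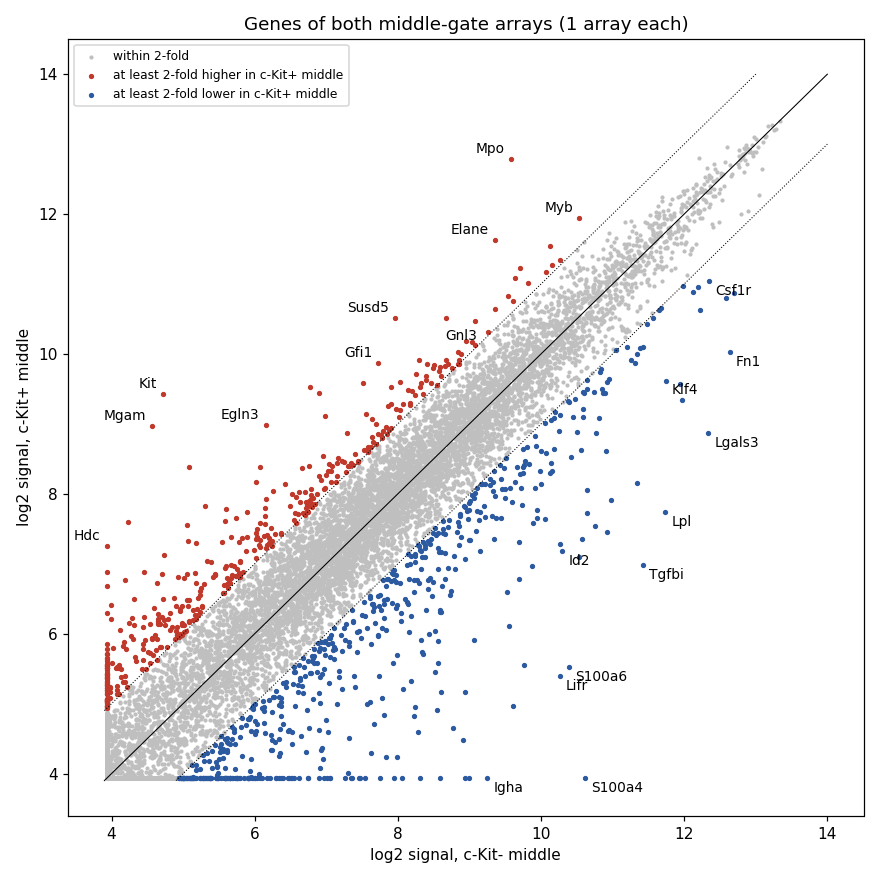
Log2 signal of each gene compared, with c-Kit- middle on the x axis and c-Kit+ middle on the y axis (1 array each, floor at 15.3). Each point is a gene, red at least 2-fold higher (396 genes), blue at least 2-fold lower (586 genes) and grey within 2-fold. The solid line marks equal signal and the dotted lines 2-fold. The blue points reach farther from the line than the red ones, and the row of points along the lower edge holds genes at the floor in c-Kit+ middle, such as S100a4 and Igha.

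The genes of the sort itself were checked first. Kit, which encodes c-Kit, had signals of 26.4 in the c-Kit- and 690.2 in the c-Kit+ middle fraction, a 26.1-fold difference in the direction of the labels. It had 479 in c-Kit+ high and lay below the floor, at 6.58, in c-Kit- low. With the mean of its probe sets the middle-gate log2 ratio of Kit was 2.91, beside 4.71 by the brightest, so its size depends on the probe set. Both fractions of the middle gate carry the same NS-GFP label, yet Gnl3, the gene of the nucleolar GTPase nucleostemin, had 584 in the c-Kit- and 1109 in the c-Kit+ middle fraction (1.90-fold). Its signals were 183 and 1299 at the outer gates, so each middle fraction lay between them. Gnl3 has 1 probe set, and its middle-gate log2 ratio was 0.92, under the 2-fold limit, and 1.10 under the authors' scaling. The Hoxa9 signal was 786 in the c-Kit- and 673 in the c-Kit+ middle fraction (1.17-fold lower), and Meis1 was below the floor on every array. The sources used here do not say whether these probe sets read the introduced genes.

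The highest ratios after Kit were those of Mgam, Vat1, Dio2 and Mpo. Mpo, the peroxidase of primary granules, had 763 in the c-Kit- and 7087 in the c-Kit+ middle fraction (9.29-fold), and Elane, neutrophil elastase, had 654 and 3160 (4.83-fold). In c-Kit+ high these were 7309 and 3187, close to c-Kit+ middle, and in c-Kit- low 193 and 128. Mgam, a brush border maltase-glucoamylase, had 23.7 and 503 (21.2-fold), and Dio2, the deiodinase that activates thyroid hormone, 34.0 and 334 (9.83-fold). With the mean of probe sets the log2 ratios of Dio2 and Vat1 were 2.29 and 1.96, beside 3.30 and 3.37 by the brightest. Egln3 encodes a prolyl hydroxylase that senses oxygen. Its brightest probe set was 7.13-fold higher, and the log2 ratio of its second was 2.11 against 2.83. Susd5 had 248 and 1463 (5.89-fold), with a log2 ratio of 2.99 by a second probe set. Olr1, a scavenger receptor for oxidized lipoprotein, was 5.67-fold higher, Rapgef3, an exchange factor activated by cyclic AMP, 4.77-fold, and Spint2, a serine protease inhibitor, 4.56-fold. Others of the 20 highest were Vat1 (10.3-fold), Armcx4 (5.27-fold), Tmem158 (5.36-fold), the reticulum protein gene Rcn1 (4.93-fold), Ube2cbp (4.65-fold) and Rai14 (4.53-fold). For Diras2 (5.39-fold) the second probe set had a log2 ratio of -0.20, so the probe sets disagree. Among genes at the floor in c-Kit- middle, Tmem191c was at least 6.73-fold higher, Nebl at least 5.13-fold, Armcx1 at least 3.80-fold, Timd2 at least 3.60-fold, Dph7 at least 3.42-fold and Mogat2, an acyltransferase of fat synthesis, at least 3.42-fold.

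The lowest ratios above the floor were those of Lifr, S100a6, Mmp8, Tgfbi and Vcan, and S100a4 had the largest bound. S100a6, a calcium-binding protein, had 1341 in the c-Kit- and 46.0 in the c-Kit+ middle fraction (29.2-fold lower), and S100a4 had 1565 and lay below the floor in c-Kit+ middle (at least 102-fold lower). Lgals3, galectin-3, had 5173 and 468 (11.1-fold lower), and Lpl, lipoprotein lipase, 3409 and 213 (16.0-fold lower). These remained bright genes of c-Kit- middle, with Lpl about as bright there as in c-Kit- low (3484). Cd300lf, an inhibitory receptor of myeloid cells, was 13.6-fold lower, Capn2, a calpain protease, 10.9-fold, and Pid1 12.9-fold. L1cam, an adhesion molecule best known from neurons, had 373 and 29.9 (12.5-fold lower). Wfdc17 had 1931 and 176, Niban1 was 10.9-fold lower, the ribonuclease gene Rnase6 10.6-fold and Plxdc1 10.1-fold. Among genes at the floor in c-Kit+ middle, Fpr2, a formyl peptide receptor, was at least 32.0-fold lower and Marchf1, a ubiquitin ligase that removes MHC class II from the surface, at least 25.2-fold. Clec4a3, a myeloid lectin receptor, was at least 33.4-fold lower, Plbd1 at least 20.7-fold and Zfp36l1, which promotes mRNA decay, at least 16.1-fold.

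A second probe set is the only repeat measurement in these data and covers probe error alone, not differences between sorts or mice. It was above the floor on both arrays for 4523 genes, and from these pairs the SD of 1 probe set's log2 ratio came to 0.37. The brightest was past 2-fold for 312 of them, and in 281 (90.1%) both signs were equal. That share has no share over all 4523 genes beside it. Second probe sets at the floor on either array were left out and could not count as disagreeing. The lower genes Tgfbi, an adhesion protein of the matrix, Nrp1, a semaphorin and VEGF co-receptor, and Lpl had second log2 ratios of -4.81, -3.64 and -3.55 beside first ones of -4.44, -4.13 and -3.997. For Lifr, the receptor for leukaemia inhibitory factor, they were -4.87 and -2.07, so its size depends on the probe set.

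**Figure D2:**
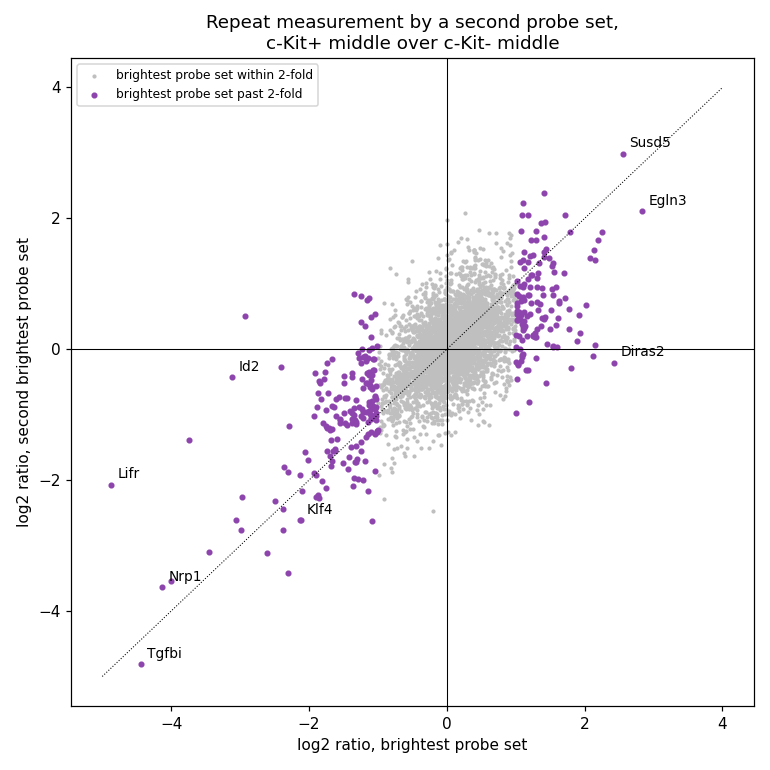
Log2 ratio of c-Kit+ middle over c-Kit- middle by the brightest probe set of a gene (x axis) and by its second brightest (y axis), for the 4523 genes with both above the floor on both arrays. Purple points are the 312 genes past 2-fold by the brightest probe set, grey points the rest, and the dotted line marks equal ratios. Most purple points (281) lie in the quadrants of equal sign, with Diras2 among the exceptions.

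Spi1, the gene of the myeloid transcription factor PU.1, had 397 in the c-Kit- and 179.9 in the c-Kit+ fraction (2.21-fold lower). Promoters were searched on both strands for GAGGAAGT, a site of PU.1, and for 4 further motifs given below, all chosen with the expression values known. Of 56 genes ranked by fold or bound above, 49 have a promoter in the RefSeq table (build GRCm38.p6). Of these, 6 hold the letters on either strand between 250 bases before and 30 bases after the start. The share over all genes was not computed for this window, and those for 300 and 250 bases are given below. These 280 bases are shown 5' to 3' on the strand of the gene, with the match in capitals, because they let genes that were higher (Mpo, chr11:87793534-87793813, plus strand, and Elane, chr10:79886062-79886341, plus strand) be read beside genes that were lower. The lower ones are Mmp8 (chr9:7558179-7558458, plus strand), Pirb (chr7:3720353-3720632, minus strand), Cd300lf (chr11:115133963-115134242, minus strand) and S100a4 (chr3:90603520-90603799, plus strand).
Mpo: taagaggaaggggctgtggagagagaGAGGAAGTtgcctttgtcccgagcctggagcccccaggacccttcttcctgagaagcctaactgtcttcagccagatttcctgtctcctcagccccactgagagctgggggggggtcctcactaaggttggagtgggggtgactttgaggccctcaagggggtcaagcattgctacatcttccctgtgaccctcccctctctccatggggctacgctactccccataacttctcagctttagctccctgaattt
Elane: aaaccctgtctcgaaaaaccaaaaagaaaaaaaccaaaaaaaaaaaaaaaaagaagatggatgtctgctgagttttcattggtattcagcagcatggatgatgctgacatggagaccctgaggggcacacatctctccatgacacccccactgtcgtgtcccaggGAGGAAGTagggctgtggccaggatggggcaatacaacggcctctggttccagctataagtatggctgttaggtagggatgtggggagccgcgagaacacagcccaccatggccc
Mmp8: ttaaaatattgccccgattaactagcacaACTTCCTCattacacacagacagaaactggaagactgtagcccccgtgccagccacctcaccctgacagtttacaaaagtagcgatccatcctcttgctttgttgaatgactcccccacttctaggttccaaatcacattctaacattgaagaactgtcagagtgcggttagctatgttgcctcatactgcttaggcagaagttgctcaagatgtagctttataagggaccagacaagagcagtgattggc
Pirb: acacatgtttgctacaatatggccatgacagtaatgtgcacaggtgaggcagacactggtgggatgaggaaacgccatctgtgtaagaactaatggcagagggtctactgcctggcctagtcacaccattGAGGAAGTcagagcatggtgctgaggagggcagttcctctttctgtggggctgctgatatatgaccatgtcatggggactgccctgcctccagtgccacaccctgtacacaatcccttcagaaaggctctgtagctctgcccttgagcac
Cd300lf: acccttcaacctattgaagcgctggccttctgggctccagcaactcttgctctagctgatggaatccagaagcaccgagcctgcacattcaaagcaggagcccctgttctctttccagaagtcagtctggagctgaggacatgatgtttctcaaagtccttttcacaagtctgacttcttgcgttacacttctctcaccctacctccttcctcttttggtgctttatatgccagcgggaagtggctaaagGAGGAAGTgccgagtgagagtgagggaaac
S100a4: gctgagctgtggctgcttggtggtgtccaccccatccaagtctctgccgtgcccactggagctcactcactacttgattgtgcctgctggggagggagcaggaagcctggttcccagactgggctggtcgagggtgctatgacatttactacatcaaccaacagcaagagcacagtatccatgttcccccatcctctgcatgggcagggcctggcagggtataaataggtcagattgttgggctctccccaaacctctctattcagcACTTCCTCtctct
The match begins 224 bases before the start of Mpo, 85 before that of Elane, 221 before that of Mmp8 and 120 before that of Pirb. In Cd300lf it begins at base 1 and in S100a4 at base 18 of the transcript. In Mmp8 and S100a4 it lies on the opposite strand. Over the whole 300 bases of the table, 3.92% of the genes compared held the letters, as did 3.44% of those at least 2-fold higher (11 of 320 genes with a promoter) and 6.49% of those at least 2-fold lower (31 of 478). At 4-fold the shares were 6.90% of the higher (2 of 29) and 11.5% of the lower genes (12 of 104). It depended on the window. In the 250 bases before the start alone the shares were 3.12%, 3.44% and 4.39%, with 6.90% of the genes 4-fold higher and 5.77% of those 4-fold lower. Of all 32851 promoters in the table, 3.20% held the letters in 300 bases. The shorter ETS core GGAAGT, which is part of the first motif, was found in 33.4% of the genes compared, 28.1% of the higher and 34.3% of the lower ones. An E-box, CACGTG, was found in 11.9%, 14.4% and 10.7%, a C/EBP site, TTGCNNAA, in 9.89%, 9.38% and 12.97%, and a cyclic AMP response element, TGACGTCA, in 3.65%, 2.50% and 2.93%. In all promoters of the table these 4 were found in 23.8%, 7.15%, 10.8% and 1.79%. At 4-fold, in 300 bases, the ETS core was found in 24.1% of the higher and 36.5% of the lower genes. The E-box was found in 24.1% (7 of 29) and 6.73% (7 of 104), and in 13.8% and 4.81% in 250 bases. For the C/EBP site the shares in 300 bases were 10.3% and 12.5%, and for the cyclic AMP response element 3.45% and 0.96%. Such matches describe letters and do not show binding.

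The gene lists that follow were set beside all genes compared, of which 3.57% were higher and 5.29% lower, with a median log2 ratio of 0.02. A list is called higher or lower here where its median lay at least 0.5 from that value. A listed gene counted only if it was above the floor on 1 or both arrays of the middle gate. A member at the floor on 1 array thus entered through the array where it was higher. Such members were, among others, 9 of 22 inflammatory, 5 of 19 lectin, 5 of 21 chemokine and 4 of 21 monocyte genes compared. Members at the floor on both arrays are given with some lists. For others they were 9 of 31 inflammatory, 8 of 19 class II and 7 of 28 chemokine genes on the array. They were 4 of 23 Fc receptor, 3 of 22 lectin and 2 of 28 cytokine receptor genes. No list was tested, and no list is shown to be particular to this comparison.

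**Figure D3:**
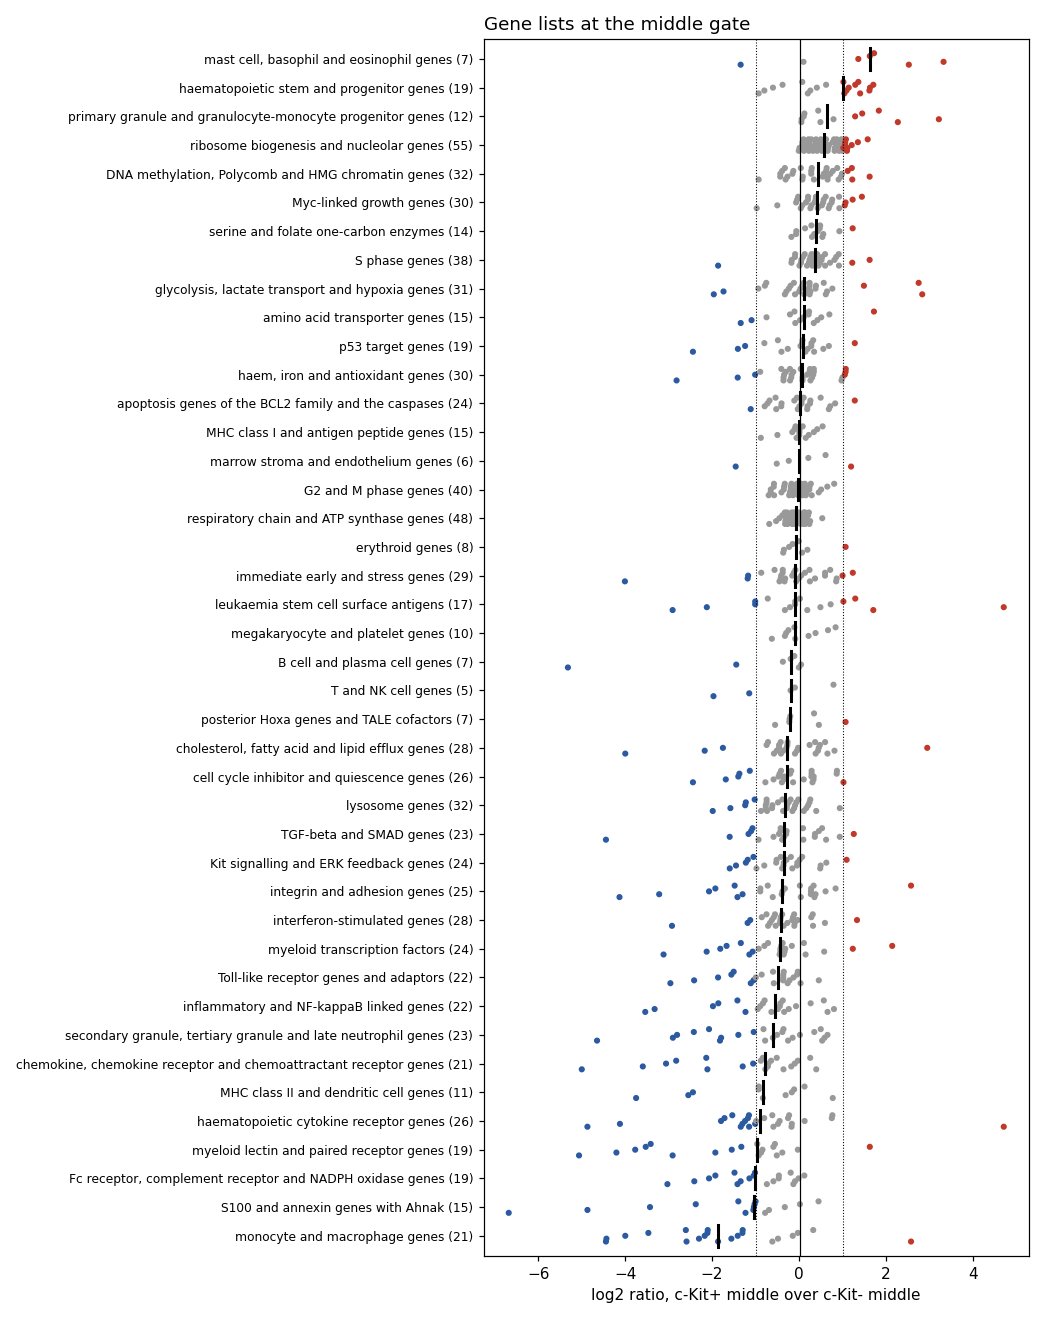
Log2 ratio of c-Kit+ middle over c-Kit- middle (x axis) for the members of 42 gene lists, ordered by median, with the number of genes compared in brackets. Each point is a gene, red at least 2-fold higher and blue at least 2-fold lower, the thick bar is the median of a list, the solid line the median of all genes (0.02) and the dotted lines 2-fold. Mast cell, stem and progenitor, primary granule and ribosome biogenesis genes lie at the top and monocyte, S100 and Fc receptor genes at the bottom.

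Regulators of immature cells were higher in c-Kit+ middle. Of 30 stem and progenitor genes, 29 were on the array, 10 were at the floor on both arrays and 19 were compared. Of these, 10 were higher and none lower, with a median log2 ratio of 1.02. Myb, which keeps progenitors dividing, had 1481 in the c-Kit- and 3921 in the c-Kit+ middle fraction (2.65-fold). Sox4 had 313 and 962 (3.07-fold) and Gata2, a factor of stem and mast cells, 48.6 and 125 (2.57-fold), with second log2 ratios of 0.47 and 1.93. Cd34, a sialomucin of stem and progenitor cells, had 459 and 931 (2.03-fold). Dim members also counted, such as Cd27 (18.1 and 59.1), the ligand gene Angpt1 (77.5 in c-Kit+ middle) and the adhesion receptor gene Adgrg1 (below the floor and 37.4). Raising the floor to the 75th percentile, which leaves out dim genes, brought the median of the list to 0.41. Homeobox partners did not share this direction. Among 7 genes compared of the posterior Hoxa and TALE list only Hoxa5 was past 2-fold (30.1 and 63.1, 2.10-fold higher), and the median was -0.20.

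The granule genes of immature granulocytic cells did not move as 1 block. All 12 measured members of the primary granule and progenitor list had ratios above 0, with a median of 0.64 (0.49 with the floor at the 75th percentile, under the limit for a call), and 5 were past 2-fold. Besides Mpo and Elane these were Ms4a3, a marker of granulocyte and monocyte progenitors (3.57-fold), the protease inhibitor gene Cst7 (2.74-fold) and Igfbp4 (2.44-fold, with the same sign in 4 of 4 further probe sets). The serine protease genes Prtn3 and Ctsg, packed into the same granules as Elane, had log2 ratios of 0.05 and 0.12. Prtn3 and Ctsg were bright in c-Kit- middle already, at 4929 and 7485. Gfi1, a repressor needed for granulocyte formation, had 212 in the c-Kit- and 935 in the c-Kit+ middle fraction (4.42-fold).

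Mast cell and basophil genes were higher too, in a list of few measured members. Of 22 genes, 18 were on the array and 11 were at the floor on both arrays, leaving 7. Of those 7, 5 were higher, and the median was 1.63. Hdc and Ms4a2, 2 of the 5, were at the floor in c-Kit- middle and counted only through their c-Kit+ signal. Hdc, the histamine-forming enzyme, was below the floor in both c-Kit- fractions and had 153 and 224 in the c-Kit+ ones. Cpa3, a mast cell carboxypeptidase, followed another pattern, with 173, 39.6, 228 and 68.8 in the order of the sort. Ms4a2, the beta chain of the IgE receptor, had 50.5 and 22.5 in the middle and high c-Kit+ fractions and lay below the floor in both c-Kit- fractions. Siglecf, an eosinophil receptor, had 109 and 336 (3.09-fold). Cpa3 and Ms4a2 thus had their highest signals in c-Kit+ middle, whereas Hdc did not. Fcer1g, the signalling chain shared by Fc receptors, went the other way (2.54-fold lower). The summed signal of the 7 genes was 2517 and 2112, of which Fcer1g alone gave 1841 and 725. The sum thus mostly follows that gene in c-Kit- middle and does not describe the list. A floor at the 25th percentile gave this list a median of 0.45, and one at the 75th percentile 0.50.

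Cytokine receptor genes were lower as a list, whereas the median of the Kit signalling genes lay less than 0.5 from that of all genes. Of 26 cytokine receptor genes compared, Kit was the only 1 past 2-fold on the higher side and 12 were lower, with a median of -0.89 (-0.47 with the mean of all probe sets). Lifr had 1230 in the c-Kit- and 42.1 in the c-Kit+ middle fraction. Il13ra1, a chain of the receptors for interleukins 4 and 13, had 266 and 2.20 (at least 17.4-fold lower), and Csf2ra, the alpha chain of the GM-CSF receptor, 698 and 201 (3.47-fold lower). Il17ra was 2.53-fold lower, Il10ra 2.90-fold and the decoy receptor gene Il1r2 3.28-fold. Csf1r, the M-CSF receptor of monocytes, had 5210 and 2112 (log2 ratio -1.30), while Csf3r, the G-CSF receptor, and Flt3, a receptor of early progenitors, were within 2-fold (-0.25 and -0.17). Of 24 genes compared on the list of Kit signalling and ERK feedback, 5 were lower, with a median of -0.35. They were Fyn, a Src-family kinase (at least 3.02-fold), Sh2b3, an adaptor that damps Kit and JAK2 signalling (859 and 314, 2.73-fold), Cblb, a ubiquitin ligase (2.27-fold), Mitf, the transcription factor of mast cells and lysosomes (2.34-fold), and Spry1, a feedback inhibitor (2.07-fold). Dusp6, a phosphatase induced by ERK, was the only 1 higher. Its signals were 158, 158, 336 and 176 in the order of the sort, so it stood out in c-Kit+ middle alone.

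**Figure D4:**
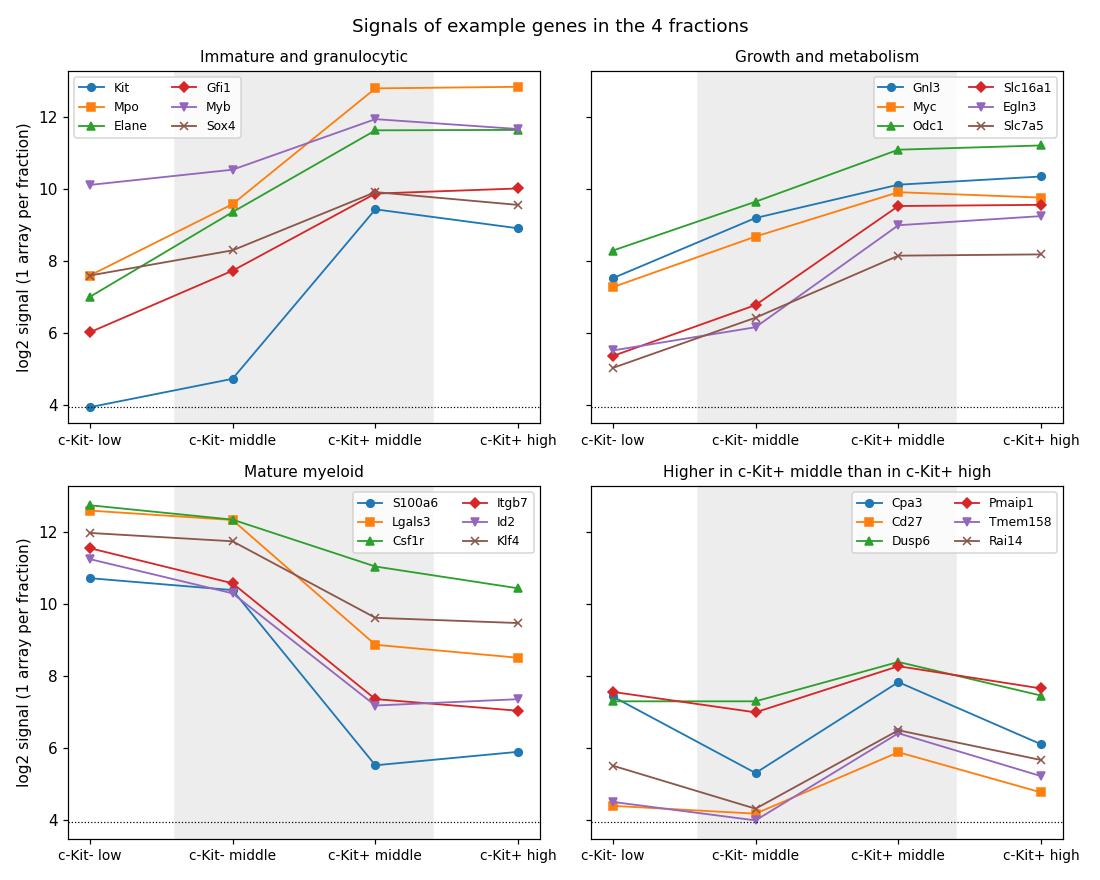
Log2 signal (y axis) of example genes in the 4 fractions (x axis, 1 array each), with the middle gate shaded and the floor dotted. Lines only join points of the same gene. Immature genes and Slc16a1 or Egln3 are near level between c-Kit+ middle and c-Kit+ high, Csf1r and Klf4 are within 2-fold between both c-Kit- fractions, and the 6 genes of the last panel, chosen after their values were seen, are all higher in c-Kit+ middle than they are in c-Kit+ high.

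Monocyte and macrophage genes were the list farthest below 0. Of 30 genes, 28 were on the array, 7 were at the floor on both arrays and 21 were compared, of which 15 were lower, with a median of -1.86. Fn1, fibronectin, had 6356 in the c-Kit- and 1045 in the c-Kit+ middle fraction (6.08-fold lower), and Apoe, apolipoprotein E, 985 and 219 (4.50-fold lower). Tgfbi had 2755 and 127, and the proteoglycan gene Vcan 481 and 22.3. Msr1, a scavenger receptor, was at least 6.01-fold lower. Vcam1, an adhesion molecule also found on stromal and progenitor cells, was the only member higher, with 18.2 and 109. The tissue macrophage marker Adgre1 had 552 and 360.3, within 2-fold. Late neutrophil genes were lower in 9 of 23 cases (median -0.60). Mmp8, neutrophil collagenase, had 783 and 31.2, Ltf, lactoferrin, 129.7 and 24.2, Mmp9, gelatinase, was at least 6.99-fold lower and Lyz2, lysozyme, had 6630 and 1879. The neutrophil granule genes Camp and Ngp leaned the other way, with log2 ratios of 0.59 and 0.53, so secondary granule genes did not share 1 direction.

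Fc receptor, lectin and S100 genes were lower as lists, and the median of the Toll-like receptor list lay just less than 0.5 from that of all genes. Of 19 Fc receptor, complement receptor and oxidase genes compared, 10 were lower and none higher (median -1.01). Mertk, a receptor for dying cells, was at least 8.16-fold lower and Fcgrt, the neonatal Fc receptor, 3.80-fold. Fgr, a Src-family kinase, was 5.31-fold and Cfp, properdin, 2.80-fold lower, but second probe sets had log2 ratios of -0.28 and -0.40. Myeloid lectin and paired receptor genes had 9 of 19 lower (median -0.96). Pirb, an inhibitory receptor, had 864 and 47.0, Cd33, a sialic acid receptor, 937 and 125, and Clec4n and Sirpb1a were below the floor in c-Kit+ middle (at least 10.7-fold and 11.5-fold lower). Of 22 Toll-like receptor genes and adaptors, 7 were lower and none higher (median -0.47). Tlr2 had 560.1 and 197, the co-receptor gene Cd14 726 and 247, the adaptor gene Myd88 515 and 238 and the inflammasome sensor gene Nlrp3 88.6 and 24.4. S100 and annexin genes with Ahnak had 10 of 15 lower and none higher (median -1.04). S100a10 had 3945 and 759.9 (5.19-fold lower), S100a9 656 and 249 (2.63-fold), and Ahnak, a large scaffold that binds S100a10, 1481 and 137 (10.8-fold). Anxa2, the partner of S100a10, had 4464 and 1901 (2.35-fold lower), but a second probe set had a log2 ratio of 0.00.

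Chemokine and inflammatory genes were lower as lists, and the medians of the adhesion and interferon lists lay less than 0.5 from that of all genes. Of 21 chemokine and chemoattractant receptor genes compared, 8 were lower and none higher (median -0.78). The chemokine genes Ccl6 and Cxcl2 were 8.34-fold and 7.10-fold lower, the prostaglandin receptor gene Ptger4 12.1-fold and the fractalkine receptor gene Cx3cr1 4.31-fold. Integrin and adhesion genes had 7 of 25 lower (median -0.38). Itgb7, a partner of the alpha 4 integrin, had 1529 and 164 (9.30-fold lower), Itgb5 was 3.80-fold lower, Itgb2, the common chain of leukocyte integrins, 2.67-fold and its ligand Icam1 2.79-fold. Of 22 inflammatory and NF-kappaB genes 6 were lower (median -0.56, and -0.44 with no floor, which ends the call). Socs3, a feedback inhibitor of cytokine signalling, had 153 and lay below the floor in c-Kit+ middle, and the costimulatory genes Cd40 and Cd80 were at least 11.6-fold and 3.62-fold lower. Bcl3 was 2.67-fold lower. Interferon-stimulated genes had 3 of 28 lower (median -0.41), with Ifitm3 at 1603 and 211 (7.59-fold lower), while Gbp3 was 2.52-fold higher. MHC class I genes showed no gene past 2-fold among 15 compared (median 0.01), the farthest being Psmb10, an immunoproteasome subunit (1.84-fold lower).

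Myeloid transcription factors were mixed, with 2 of 24 higher, 7 lower and a median of -0.43. Id2, an inhibitor of E proteins, had 1260 in the c-Kit- and 145 in the c-Kit+ middle fraction, although its second probe set had a log2 ratio of only -0.42. Klf4, a factor of monocytes, had 3433 and 787 (4.36-fold lower, and -2.62 by a second probe set). Maf, a macrophage factor, was at least 3.51-fold lower, Irf5 3.18-fold and Klf13 2.53-fold. For Irf5 a second probe set had a log2 ratio of only -0.15. Besides Gfi1, Egr1, an immediate early gene, was higher (252 and 593). Cebpa, a master factor of granulocytic cells, and Irf8, its counterpart for monocytes, were within 2-fold, with log2 ratios of 0.58 and -0.32. Of 23 TGF-beta and SMAD genes, 5 were lower (median -0.34). Apart from Tgfbi these were the receptor genes Bmpr2 (3.02-fold) and Acvr1 (2.10-fold), Skil, a SMAD repressor (2.24-fold), and Smad1 (at least 2.15-fold).

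Ribosome biogenesis genes were higher as a list by a small amount, and the medians of the Myc-linked and the serine and folate lists lay less than 0.5 from that of all genes. Of 55 ribosome biogenesis and nucleolar genes, 54 had a ratio above 0 and 9 were past 2-fold, with a median of 0.58. Nop58, a core protein of small nucleolar RNPs, had 269.7 and 624 (2.32-fold), the helicase gene Ddx21 472 and 1020 (2.16-fold), and Utp4, of the small subunit processome, 223 and 478 (2.15-fold). For Gnl3l, the closest relative of nucleostemin, the probe sets disagreed, at log2 ratios of 1.08 and -0.18. For Ddx21 a second probe set had a log2 ratio of 0.29. Of 30 Myc-linked genes, 4 were higher (median 0.41). Srm, spermidine synthase, had 540.4 and 1120, and Odc1, which starts polyamine synthesis, 799 and 2177. Tfrc, the transferrin receptor, had 327 and 687 (2.10-fold). Of 14 serine and folate enzymes only Phgdh, which starts serine synthesis, was past 2-fold (496 and 1166, 2.35-fold), with a median of 0.39. Slc7a5, the carrier of large neutral amino acids, had 85.7 and 283 (3.30-fold higher), whereas Slc7a7, a carrier of macrophages, was 2.54-fold lower and Slc43a2 2.13-fold. For Slc43a2 a second probe set had a log2 ratio of -0.39. Alas1, which starts haem synthesis, had 1231 and 2592 (2.11-fold).

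Metabolic lists as a whole were level, with single genes far out. Glycolysis and hypoxia genes had a median of 0.12 over 31 genes, 3 being higher and 2 lower. Slc16a1, a lactate transporter, had 109 and 736 (6.73-fold), and Vegfa was below the floor in c-Kit- middle (at least 2.81-fold higher). Ddit4, an inhibitor of mTORC1, had 567 and 145 (3.89-fold lower), and the aldolase gene Aldoc was 3.34-fold lower. None of 48 respiratory chain genes reached 2-fold (median -0.08, and 0.08 under the authors' scaling). Sterol and lipid genes had 18 of 28 ratios below 0 (median -0.27) and 3 genes lower, with Mvk, mevalonate kinase, at 75.4 and 22.4. The member past 2-fold on the higher side was Far2, which makes fatty alcohols (at least 7.72-fold). Lysosome genes leaned lower, with 25 of 32 ratios below 0 (median -0.32) and 5 genes past 2-fold on that side. Among these 5 were the protease gene Ctss (4751 and 1590), the saposin gene Psap (4678 and 1981), Lgmn, legumain (at least 3.96-fold), and Tfeb, the regulator of the pathway (2.03-fold). In the haem, iron and antioxidant list the median was 0.06. Slc11a1, an iron transporter of phagosomes, was 7.05-fold lower, Hmox1, haem oxygenase, at least 2.66-fold and Gpx3 2.01-fold. Gsr, glutathione reductase, was 2.07-fold higher, but a second probe set had a log2 ratio of 0.21.

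No list of division, cell cycle inhibitor, death or chromatin genes had a median 0.5 or more from that of all genes. All 40 genes of the G2 and M phases lay within 2-fold (median -0.04, and 0.13 under the authors' scaling), the farthest being the condensin gene Smc2 (1.75-fold higher). Of 38 S phase genes 33 had a ratio above 0 (median 0.36), 2 were higher and 1 was lower. The higher ones were Uhrf1 and Hells, which are also on the chromatin list and described with it. The lower one was E2f2, an E2F factor, which had 331, 263, 72.3 and 84.0 in the order of the sort. It was 3.64-fold lower in c-Kit+ middle, with a log2 ratio of -2.27 by a second probe set. Of 26 inhibitor and quiescence genes, 5 were lower (median -0.27). Cdkn1a, which encodes the inhibitor p21, had 346 and 63.8 (5.43-fold lower), Cdkn2d, which encodes p19, 379.8 and 144 (2.63-fold), Cdkn1b, which encodes p27, 252 and 115 (2.19-fold), and the antiproliferative gene Btg2 was 2.59-fold lower. The transcription factor gene Foxo1 was 3.22-fold lower. Cdkn1c, which encodes p57, was at least 2.03-fold higher. Of 19 p53 targets, Cdkn1a, Fas, a death receptor (at least 2.65-fold), and Sesn2 (2.36-fold, but a second log2 ratio of -0.21) were lower. Pmaip1, which encodes the death protein Noxa, was higher (127 and 310), so the list had no shared direction (median 0.08). The apoptosis list was level (median 0.03), Casp6 being 2.16-fold lower. Of 32 chromatin genes, 4 were higher and none lower (median 0.44). Uhrf1, which brings maintenance methylation to replicated DNA, had 241 and 741 (3.08-fold), the helicase gene Hells was 2.34-fold higher, and Dnmt3a, a methyltransferase, had 63.4 and 147 (2.32-fold, with the same sign in 4 of 4 further probe sets). Second probe sets of Uhrf1 and Hells had log2 ratios of 0.74 and 0.71. Hmgn1, a nucleosome-binding protein, had 1143 and 2483 (2.17-fold). Immediate early and stress genes had a median of -0.08 (0.07 under the authors' scaling), with Junb 2.25-fold and Ier5 2.27-fold lower and the phosphatase gene Dusp2 2.00-fold higher.

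Leukaemia stem cell surface antigens were split, with 4 of 17 higher, 4 lower and a median of -0.09 (0.07 under the authors' scaling). Kit, Cd27, Adgrg1 and Cd34 were higher. Cd33, Cd99 (426 and 97.9, 4.35-fold), Il3ra, the alpha chain of the interleukin 3 receptor (118 and 58.4, 2.01-fold), and Cd52 (4054 and 2015, 2.01-fold) were lower.

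Markers of other blood lineages were mostly near the floor, with a plasma cell and class II signal in c-Kit- middle. The B cell genes Cd79a and Ms4a1, the T cell genes Cd3e and Cd3g, and Col1a1 and Cdh5 of stroma and endothelium were below the floor on both arrays. Of 21 B and plasma cell genes on the array, 14 were at the floor on both. Igha, the constant region of IgA, had 4915, 609, 11.8 and 65.4 in the order of the sort, and Jchain, which joins IgA chains, had 538, 41.6, 1.10 and 22.1. Both were highest in c-Kit- low and lowest in c-Kit+ middle, where they lay below the floor. Of 11 class II and dendritic cell genes compared, 3 were lower (median -0.83, and -0.33 in the second deposited table, which ends the call). H2-Aa had 254 and 18.9. H2-Eb1 (83.0 in c-Kit- middle) and Cd74, the invariant chain (89.3), lay below the floor in c-Kit+ middle, at least 5.43-fold and 5.85-fold lower. By a second probe set the log2 ratio of H2-Aa was -1.39, beside -3.75 by the brightest. Klrd1, of NK cells, had 59.8 and lay below the floor in c-Kit+ middle (at least 3.91-fold lower), and the T cell gene Cd28 had 113 and 51.1. Erythroid (median -0.08), megakaryocyte (-0.10, and 0.02 under the authors' scaling) and stroma genes (-0.01, and 0.11) had medians near that of all genes. Tfrc, Itga2b (1.79-fold higher), Pdgfrb (2.29-fold higher) and Fabp4 (at least 2.75-fold lower) were the farthest members. At the floor on both arrays were 12 of 20 erythroid, 9 of 19 megakaryocyte and 18 of 24 stroma genes on the array. Of those compared, 6 of 8, 5 of 10 and 3 of 6 were at the floor on 1 array. These medians thus rest on few measured genes. The summed signal of the monocyte and macrophage list over its 21 genes was 37434 in the c-Kit- and 12570 in the c-Kit+ middle fraction, and that of the 12 primary granule genes 25274 and 38832. These sums weigh bright genes most, such as Fn1 (6356 and 1045) in the first and Mpo (763 and 7087) in the second. They do not describe the lists. In a sorted bulk sample, fewer cells of a type and less RNA per cell cannot be told apart. The part of other cell types in the differences above was not tested.

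The outer arrays, which the middle-gate comparison does not use, were used to place its genes. Shares of equal sign, and of signals within 2-fold of a neighbouring fraction, were computed for genes past 2-fold only. They have no share over all genes beside them and are not read as particular to these genes. They differ from each other in both markers, and their c-Kit+ array was at least 2-fold above the c-Kit- one for 16.1% of genes and below it for 13.6%. Of 978 genes past 2-fold at the middle gate and above the floor on 1 or both outer arrays, 923 (94.4%) had the same sign there. Of the 396 higher genes, 264 were also at least 2-fold higher between the ends, which is 66.7% of them and 14.6% of the 1813 genes higher between the ends. Of the 586 lower genes, 495 were also lower, which is 84.5% of them and 32.2% of 1539. The c-Kit+ high signal was within 2-fold of c-Kit+ middle for 94.2% of the higher and 92.0% of the lower genes. Among the same genes the c-Kit- fractions lay farther apart, with c-Kit- low within 2-fold of c-Kit- middle for 80.3% of the higher and 66.6% of the lower ones. For 176 of the lower genes c-Kit- low was at least 2-fold brighter still. Both c-Kit+ arrays were at least 2-fold above both c-Kit- arrays for 221 of the higher genes and at least 2-fold below them for 446 of the lower genes.

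**Figure D5:**
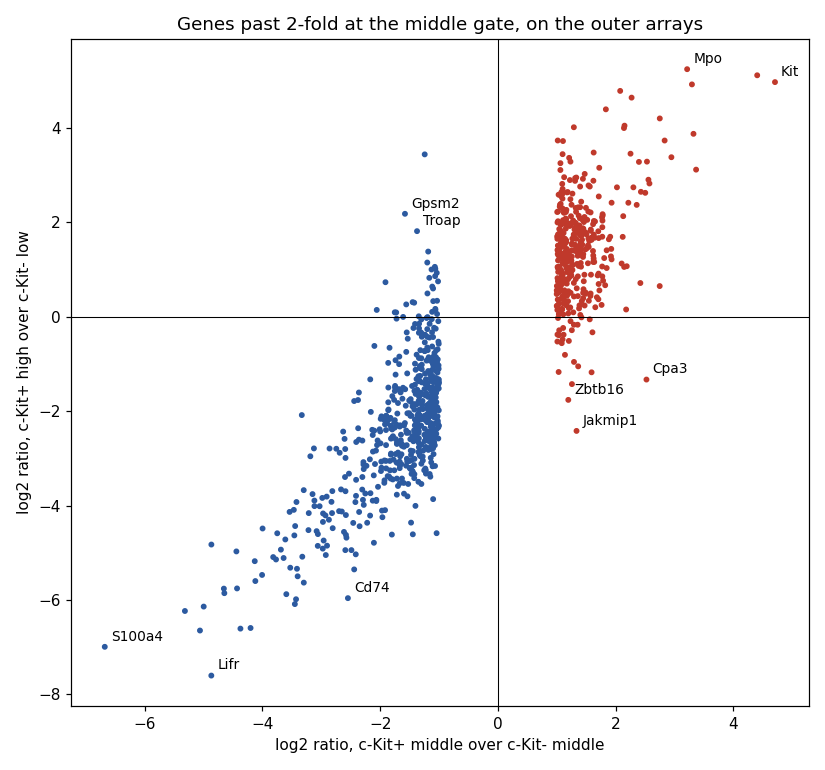
Log2 ratio of c-Kit+ middle over c-Kit- middle (x axis) and of c-Kit+ high over c-Kit- low (y axis) for the 978 genes past 2-fold at the middle gate and above the floor on 1 or both outer arrays. Each point is a gene, red higher and blue lower at the middle gate, and no array is used on both axes. Of them 923 lie in the quadrants of equal sign, and Cpa3, Jakmip1, Gpsm2 and Troap are among the exceptions.

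A few genes went against the ends of the sort. Between the outer arrays, 7 of the higher and 8 of the lower genes were past 2-fold in the opposite direction, and the 8 most opposite on each side are described here. Cpa3 had the largest middle-gate ratio among the higher ones (log2 2.52 against -1.33). Kdm5b, a histone demethylase, had 79.9, 23.3, 70.2 and 35.4 in the order of the sort, but its second probe set gave a log2 ratio of 0.03. Cyria, a regulator of the cytoskeleton, had 123, 47.8, 123 and 59.2, and Jakmip1 81.6, 1.10, 38.6 and 4.97. Zbtb16, a zinc finger repressor, had 190.3, 35.2, 80.6 and 56.2, but its second probe set gave a middle-gate log2 ratio of -0.80. The remaining ones, Mzf1, Il17re and Rassf2, were dim, with signals of 36.5, 31.2 and 60.6 in the c-Kit+ middle fraction. On the lower side Gpsm2, which orients the mitotic spindle, had 47.8, 315, 106 and 217, and Troap, a spindle-associated gene, 14.9, 44.3, 17.1 and 53.7. Lactb2 had 83.2, 185, 87.9 and 173, and Sema4b 44.3, 107, 49.0 and 88.7. Choosing genes by opposite ratios fixes such orders in part, so they are given as values alone. Aipl1, Spink2 and Rnls had middle-gate log2 ratios of -1.20, -1.06 and -1.04 from dim signals, and for Rhbdd3 (-1.18) the second probe set had 0.35. For Troap and Lactb2 the second probe sets had -0.36 and -0.32.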

How the data were processed

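RNA of 4 sorted fractions of mouse leukaemia cells was measured on 1 Affymetrix array each, without replicates. The tools GCOS 1.2, MAS5 and R 3.0.2 are listed per the submitters' processing notes, without the step each was used for. The first deposited table holds the linear intensity of 45101 probe sets, 64 of them controls. A further deposited table, of 17419 probe sets on the log2 scale, equals the log2 of the first plus 1 constant per array (0.65 and 0.49 for the c-Kit- and c-Kit+ middle fractions).

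From the first table, the 45037 other probe sets were quantile normalized over 4 arrays, because their trimmed means ranged from 99.0 to 120.4, floored at the 50th percentile and taken to log2 (Python 3.11.15, pandas 2.3.3, numpy 2.4.6). Of them, 34945 have 1 gene in the platform annotation, 932 several and 9160 none listed. By gene ID, 34741 were given RefSeq symbols. A gene is its probe set of highest mean signal. A gene not above the floor on either middle-gate array was not compared. The arithmetic was tested on simulated data. The number of arrays limits the precision.

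The members, the 42 lists and the rules were chosen with earlier results of these data known. The genes named are those of the sort and the oncogenes, the 20 highest and 20 lowest ratios, the 8 brightest in each direction at the floor on the other array, the 8 in each direction most opposite at the ends, and up to 6 members past 2-fold per direction of each list (otherwise its farthest member), passing over predicted genes. Second probe sets that disagree in sign are given beside the gene. Prtn3, Ctsg, Camp, Ngp, Csf1r, Csf3r, Flt3, Cebpa, Irf8 and Adgre1 were added after their values were seen. Alternatives changed the scaling, floor, probe set rule and table.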

Additional observations from a re-analysis of the deposited data

How the results depend on the processing

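No paired analysis was possible because each group has 1 array, and for the same reason no replicate could be left out. The counts of genes past 2-fold depended most on the floor. With the floor at the 25th percentile 1533 genes were higher and 1726 lower (47.0% of them higher, 68.8% with the same sign at the ends of the sort, 77.0% with the same sign by a second probe set). With the floor at the 75th percentile these were 150 and 285 (34.5%, 98.6% and 93.7%), and with no floor 2593 and 2771 (48.3%, 60.9% and 60.1%). Dim probe sets thus limit these counts. Under the authors' scaling the share higher was 56.6% and the share with the same sign at the ends 92.0%. The second deposited table, used as deposited, gave 94.3% with the same sign by a second probe set, and 289 genes higher and 395 lower. With the mean of all probe sets 312 genes were higher and 510 lower. Quantile normalization of both middle-gate arrays alone gave 395 and 584. Of the 13 lists called higher or lower, none changed sign, but 6 came within 0.5 of the median of all genes under 1 or more alternatives and so lost the call. These were cytokine receptors (-0.47 with the mean of probe sets), stem and progenitor genes (0.41 at the 75th percentile), primary granule genes (0.49 at the 75th percentile and 0.48 in the second table), mast cell genes (0.45 and 0.50 at the 25th and 75th percentiles), inflammatory genes (-0.44 at the 25th percentile and with no floor, -0.47 with the mean of probe sets) and class II genes (-0.40 at the 25th percentile, -0.48 with no floor, -0.33 in the second table). With no floor the mast cell median was 1.22. Myeloid factor (1 alternative), Toll-like receptor (4), T and NK cell (1), stroma (2) and chromatin lists (2) gained a call. Of the other lists, Hoxa genes moved to 0.17 at the 25th percentile and B cell genes to 0.31 with no floor. At the 75th percentile and in the second table erythroid genes moved to 0.35 and 0.37 and stroma genes to 1.197 and 1.19, and at the 75th percentile megakaryocyte genes to 0.52. Of 205 named genes past 2-fold, 188 stayed past it under the authors' scaling and 175 with the mean of probe sets, where Zbtb16 turned to -0.28. At the 75th percentile 118 of the 153 with a value did, and 128 of 130 did with the further deposited values. The causes were not tested.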
